A study of Mus musculus with 5 samples.

Results

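Genes of potassium channels were examined in sphere cultures of postnatal mouse adrenal cells. They were taken as every gene symbol that starts with *Kcn*, without the antisense or overlapping transcripts *Kcnd3os*, *Kcnmb4os1* and *Kcnq1ot1*, which gave 94 of the 23903 genes measured. They comprise the pore-forming subunits of the voltage-gated, inward-rectifier, tandem-pore and calcium- or sodium-activated channels, and the auxiliary subunits that bind to them. For a gene with more than 1 RefSeq transcript, the transcript with the highest mean over all libraries stands for the gene, which concerned 27 of the 94 genes.

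The study separated dissociated adrenal cells by panning on a dish coated with an antibody to L1CAM, a surface protein of chromaffin cells and neurons, and grew both fractions as floating spheres before bulk sequencing of mRNA. The 2 L1CAM-positive libraries carry the label chromaffin cell and the 3 L1CAM-negative libraries the label non-adrenergic. L1CAM-positive and L1CAM-negative spheres numbered 25 were cultured for 8 days and those numbered 31 for 5 days, all 4 from adrenals of P0 and P2 pups mixed 1 to 1. L1CAM-negative spheres 28 came from P5 adrenals and were cultured for 8 days, with no L1CAM-positive counterpart. The labels name no transgene or agent. The labels give the strain as C57/bl6, whereas the methods of the study name OF-1 mice aged P1 to P5. Neither source says what the numbers mark or whether libraries came from separate animals, and p-values therefore reflect how far these libraries scatter, possibly for technical reasons. P5 is held by 1 L1CAM-negative library alone, and the L1CAM-negative fraction is a mixture of cell types.

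Potassium channels let potassium leave the cell and thereby pull the membrane potential to negative values. Tandem-pore channels leak at rest, voltage-gated channels end the action potential, and calcium-activated channels couple calcium entry to repolarization. In chromaffin cells, which are electrically excitable and secrete catecholamines when depolarized, this set of channels governs firing and thus secretion. In the steroid-producing cells of the adrenal cortex, leak channels of the TASK type hold the membrane near the potassium potential.

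Values are log2(FPKM + 2), quantile normalized by the authors, where FPKM is fragments scaled to transcript length and library total. Linear values given here as FPKM have the offset of 2 removed. This offset was inferred from the lowest value of the table, and fold changes on the log2 scale understate the change of genes with low values. The depth of the libraries is unknown. *L1cam*, the basis of the separation, was at 48.1 and 40.4 FPKM in the L1CAM-positive and at 3.48, 3.82 and 5.29 in the L1CAM-negative libraries 25, 31 and 28. Of 9 chromaffin markers, 6 were higher in L1CAM-positive spheres, and their summed FPKM in the L1CAM-negative libraries was 5.74%, 7.84% and 1.27% of that in the L1CAM-positive ones. All 8 markers of the adrenal cortex were higher in L1CAM-negative spheres, and the L1CAM-positive libraries held 13.9% and 20.3% of the summed cortical level of their L1CAM-negative counterparts. In bulk samples, fewer cells of a type and less RNA per cell cannot be told apart.

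Of the 94 potassium channel genes, 30 (31.9%) were higher in the L1CAM-positive than in the L1CAM-negative fraction and 6 (6.38%) lower, with an adjusted p under 0.05 (limma, Benjamini-Hochberg over all 23903 genes), and 58 did not pass. Over all genes the shares were 11.6% and 10.01%. With the library number as a replicate block, limma called no gene at all in either direction, as described at the end. The median log2 fold change was 0.06 over the 94 genes and -0.00 over all genes, since many channels were hardly expressed: 42 genes reached 1 FPKM in no library, and 5 of these were at the lowest value in all of them. Genes at 1 FPKM or more numbered 44 and 45 in the L1CAM-positive libraries and 30, 31 and 24 in the L1CAM-negative libraries 25, 31 and 28. In a separate fit restricted to genes at 1 FPKM or more in at least 2 libraries, 49 potassium channel genes were tested, of which 30 (61.2%) were higher and 8 (16.3%) lower, beside 21.2% and 22.4% of all genes in that fit. Their median log2 fold change was 0.62, against -0.04 for all of those genes. The filter can be met through the L1CAM-positive libraries alone, as by *Kcnc1*, or through L1CAM-negative libraries alone, as by *Kcnn4*. These shares and medians therefore depend in part on the filter.

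The L1CAM-positive and L1CAM-negative values did not overlap for 44 genes with the L1CAM-positive libraries above (46.8%, against 23.0% of all genes) and for 21 genes with the L1CAM-negative libraries above (22.3%, against 26.0%). Without L1CAM-positive 25 or 31 or L1CAM-negative 25, 31 or 28, the number of genes higher in the L1CAM-positive fraction was 15, 17, 18, 18 and 35 and of genes lower 0, 1, 5, 3 and 5. In the limma fit with 0 lower, 8 of the 94 genes were lower at an unadjusted p under 0.05. Of the 30 genes higher, 12 passed in all 5 of these fits (among them *Kcnc1*, *Kcnc4*, *Kcnf1*, *Kcng2*, *Kcnh3*, *Kcnh4*, *Kcnh6*, *Kcnj6*, *Kcnj11*, *Kcnk12* and *Kcnq5*), and of the 6 lower, none did. The shares of all genes that passed in all 5 of those fits, or lay under that unadjusted p, are not given here. A robust form of the limma fit called 8 genes higher and 1 lower.

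**Figure D1:**
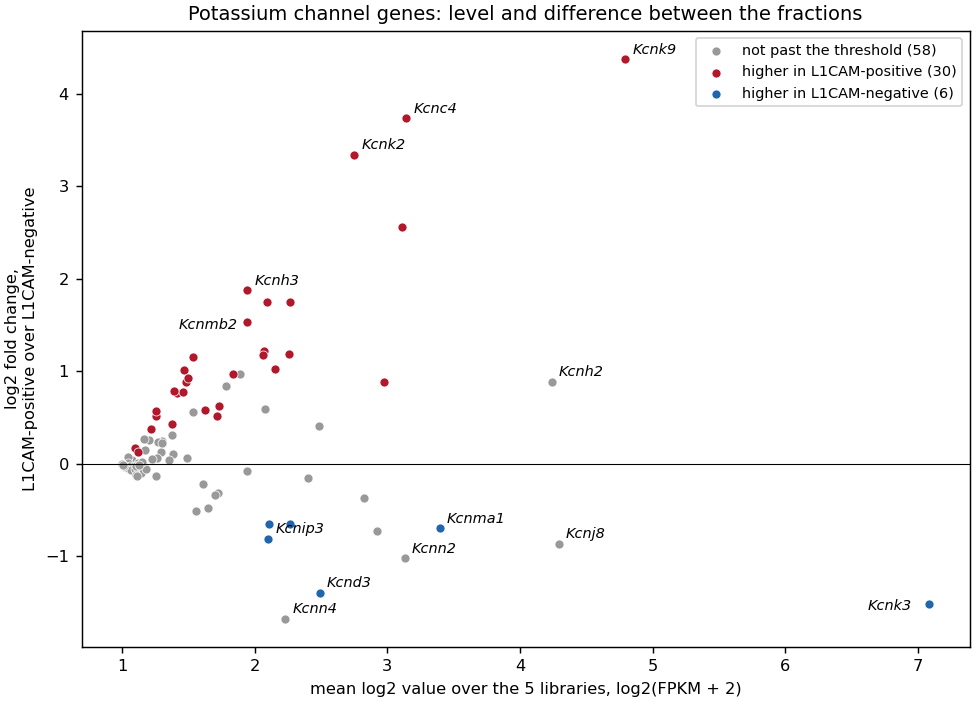
Each point is 1 of the 94 potassium channel genes, with its mean log2(FPKM + 2) over the 5 libraries on the x axis and the log2 fold change of L1CAM-positive over L1CAM-negative spheres on the y axis. Red points (30) were higher in L1CAM-positive spheres, blue points (6) in L1CAM-negative spheres, and grey points (58) did not pass the threshold. *Kcnk9* has the largest rise, at 4.37, and *Kcnk3* the highest mean.

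The 14 tandem-pore genes carried between 51.2% and 63.7% of the potassium channel FPKM in every library, and the fractions differed in which member was abundant. *Kcnk9* (chr15:72501873-72548614, GRCm38.p6) encodes the acid-sensitive leak channel TASK-3. It was at 184 and 155 FPKM in L1CAM-positive spheres 25 and 31 and at 12.2, 11.0 and 1.03 FPKM in L1CAM-negative spheres 25, 31 and 28. All L1CAM-positive values lay above all L1CAM-negative values, and the P5 library was the lowest. Its log2 fold change of 4.37 (SE 0.85) had an adjusted p of 0.0419 by limma. This call was lost without L1CAM-positive 25 or 31 or L1CAM-negative 25 or 31, with an adjusted p up to 0.195, and was kept without the P5 library, with an adjusted p of 0.0101. *Kcnk3* (chr5:30588170-30625270) encodes TASK-1, the closest relative of TASK-3, with which it can form mixed channels. It showed the opposite direction, at 73.7 and 67.0 FPKM in L1CAM-positive and 236, 204 and 178 FPKM in L1CAM-negative spheres 25, 31 and 28. The log2 fold change was -1.52 (SE 0.14, adjusted p 0.0102 by limma), and the adjusted p lay between 0.0501 and 0.0703 without L1CAM-positive 25 or 31 or L1CAM-negative 31.

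The ratio of *Kcnk9* to *Kcnk3* in linear values was therefore 2.49 and 2.32 in the L1CAM-positive fraction and 0.0518, 0.0539 and 0.00579 in L1CAM-negative spheres. The sum of both genes spanned 222 to 257 FPKM in L1CAM-positive and 179 to 248 FPKM in L1CAM-negative spheres, and these ranges overlap. *Kcnk3* in the L1CAM-positive libraries was at 31.2% and 32.9% of its level in the L1CAM-negative libraries of the same number, above the 13.9% and 20.3% of the summed cortical markers. Single cortical markers spanned 6.96% (*Cyp11b1*) to 23.0% (*Nr5a1*) for number 25 and 4.8% (*Cyp11b2*) to 29.5% (*Star*) for number 31. *Kcnk9* in the L1CAM-negative libraries was at 6.66%, 7.07% and 0.609% of its L1CAM-positive level, next to 5.74%, 7.84% and 1.27% for the chromaffin markers. The part of residual cells of the other fraction in these values was not tested.

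*Kcnk2*, the mechanically and lipid-gated leak channel TREK-1, was at 30.0 and 20.8 FPKM in L1CAM-positive spheres and at 0.480, 1.42 and 0.219 FPKM in L1CAM-negative spheres 25, 31 and 28. Its log2 fold change was 3.34 (SE 0.28, adjusted p 0.00840 by limma), and the adjusted p was 0.0511 without L1CAM-positive 25. These are values of 1 of its 4 transcripts, and their sum was 58.9 and 46.3 FPKM against 4.19, 5.63 and 2.39 FPKM (log2 fold change 3.19). *Kcnk12*, which encodes the subunit THIK-2, rose by 0.57 on the log2 scale from a level near 0 to 1.06 and 0.988 FPKM. The other 10 tandem-pore genes did not pass, and of these *Kcnk5* and *Kcnk6* reached 1 FPKM in at least 1 library.

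**Figure D2:**
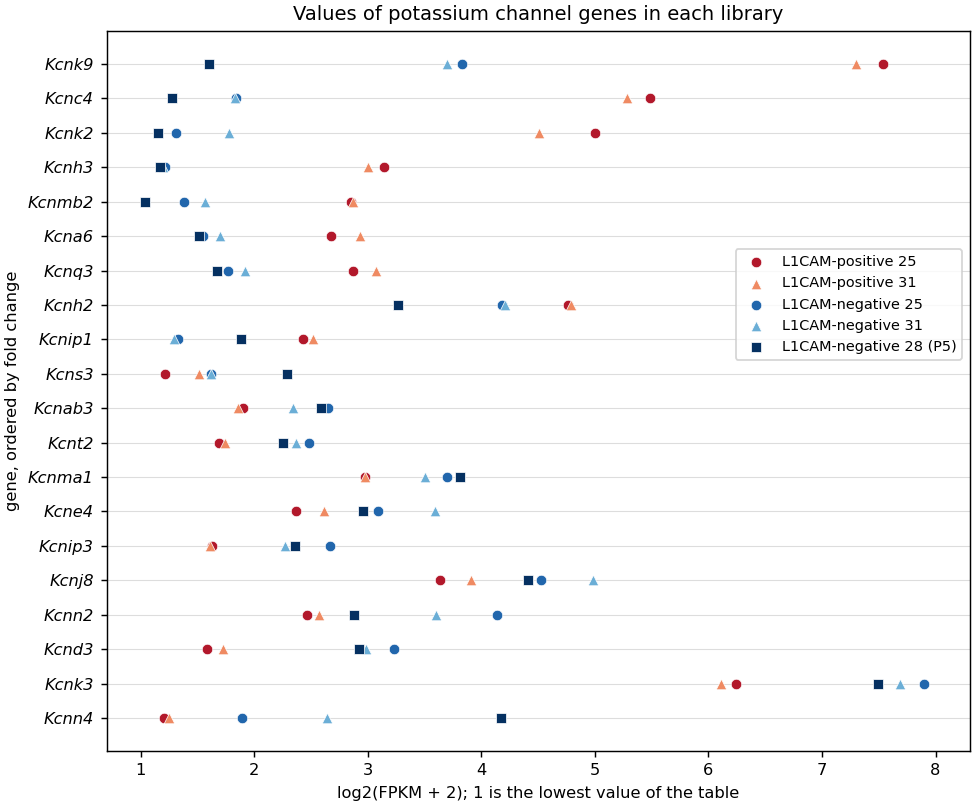
Values of 20 potassium channel genes named in the text, as log2(FPKM + 2) on the x axis, with 1 point per library, ordered by fold change. The P5 library (dark square) is the lowest of the 5 for *Kcnk9*, *Kcnc4* and *Kcnh2* and the highest for *Kcnn4*.

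Among the 17 pore-forming subunits of the Kv1 to Kv4 families, 8 were higher and 1 was lower in L1CAM-positive spheres. For this and the subfamilies below, the shares over all genes to compare with are 11.6% higher and 10.01% lower. *Kcnc4* (chr3:107438298-107460287), which encodes the fast-inactivating channel Kv3.4, showed the next largest rise after *Kcnk9*. It was at 42.8 and 37.0 FPKM in L1CAM-positive and at 1.58, 1.55 and 0.421 FPKM in L1CAM-negative spheres 25, 31 and 28. The log2 fold change of 3.74 (SE 0.23, adjusted p 0.00568 by limma) passed without any 1 of the 5 libraries. *Kcnc1*, which encodes the rapidly deactivating channel Kv3.1 of fast-spiking neurons, moved in the same direction, at 2.11 and 1.97 against 0.213, 0.160 and 0.183 FPKM.

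*Kcna6*, a delayed rectifier of the Kv1 family, was at 4.39 and 5.64 FPKM in L1CAM-positive and 0.917, 1.25 and 0.847 FPKM in L1CAM-negative spheres 25, 31 and 28 (log2 fold change 1.22, SE 0.12, adjusted p 0.0104 by limma). *Kcna3*, *Kcna4* and *Kcnd2* were also higher, with log2 fold changes between 0.52 and 0.97. The call of *Kcna3* was lost in 4 of the 5 fits that leave out a library, with an adjusted p up to 0.074.

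The pair of Kv4 genes that carry the transient A-type current differed in direction. *Kcnd2* was at 3.50 and 3.21 FPKM in L1CAM-positive and at 1.01, 0.742 and 0.462 FPKM in L1CAM-negative spheres (log2 fold change 0.97). *Kcnd3* was at 0.998 and 1.30 FPKM in L1CAM-positive and at 7.41, 5.91 and 5.58 FPKM in L1CAM-negative spheres 25, 31 and 28. Its log2 fold change was -1.39 (SE 0.13, adjusted p 0.0104 by limma), with an adjusted p of 0.0759 and 0.0641 without L1CAM-positive 25 and 31. The ratio of *Kcnd3* to *Kcnd2* was 0.285 and 0.404 in the L1CAM-positive fraction and 7.32, 7.97 and 12.1 in L1CAM-negative spheres. *Kcnd1*, the third Kv4 gene, was at 4.70 and 4.62 against 2.59, 2.88 and 3.60 FPKM and did not pass.

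Among the *Kcnq* genes, which encode the muscarine-sensitive M channels and their relatives, *Kcnq3* was at 5.31 and 6.41 FPKM in L1CAM-positive and at 1.42, 1.78 and 1.18 FPKM in L1CAM-negative spheres 25, 31 and 28. All L1CAM-positive values lay above all L1CAM-negative values. The log2 fold change was 1.18 (SE 0.12, adjusted p 0.0112 by limma), and the adjusted p was between 0.0521 and 0.062 without L1CAM-positive 25 or 31 or L1CAM-negative 25. *Kcnq5* rose by 0.58 on the log2 scale, from 0.588, 0.608 and 0.669 FPKM in L1CAM-negative to 2.11 and 1.76 FPKM in L1CAM-positive spheres. *Kcnq1* reached 1 FPKM in no library.

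The ether-a-go-go family (*Kcnh*) had 8 genes, of which 3 were higher and none lower. *Kcnh3*, the ELK channel of the forebrain, was at 6.83 and 5.99 FPKM in L1CAM-positive and at 0.326, 0.290 and 0.243 FPKM in L1CAM-negative spheres 25, 31 and 28. The log2 fold change of 1.88 (SE 0.06, adjusted p 0.00363 by limma) passed without any 1 of the libraries. *Kcnh6* and *Kcnh4* rose by 0.93 and 0.77. *Kcnh2*, the ERG channel, was the most abundant member and did not pass, at 25.1 and 25.6 FPKM against 16.2, 16.5 and 7.61 FPKM (adjusted p 0.195 by limma). The P5 library was the lowest, and without the P5 library the log2 fold change was 0.58 with an adjusted p of 0.0117.

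Electrically silent subunits form channels only together with other Kv subunits. Of these 10 genes, *Kcng2*, *Kcnf1* and *Kcnv1* were higher in L1CAM-positive spheres. *Kcng2* was at 2.04 and 2.41 FPKM against 0.0607 to 0.130 FPKM, whereas *Kcnf1* and *Kcnv1* stayed below 1 FPKM in all libraries. *Kcns3* had the highest mean of this group and did not pass, at 0.317 and 0.859 FPKM in L1CAM-positive and 1.08, 1.06 and 2.88 FPKM in L1CAM-negative spheres 25, 31 and 28.

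Of the 15 inward rectifiers (*Kcnj*), 5 were higher in the L1CAM-positive fraction and 0 lower. *Kcnj3*, *Kcnj6* and *Kcnj9*, which encode subunits of the G protein-gated channels GIRK1, GIRK2 and GIRK3, were among them. *Kcnj3* was at 1.94 and 3.56 FPKM in L1CAM-positive spheres and at no more than 0.155 FPKM in the others, and *Kcnj6* was at 1.50 and 1.79 FPKM against at most 0.203 FPKM. *Kcnj9* stayed below 1 FPKM throughout, and its call was lost in all 5 fits that leave out a library (adjusted p 0.0502 to 0.109). *Kcnj12*, the strong rectifier Kir2.2, was at 4.88 and 4.79 against 1.50, 1.26 and 0.402 FPKM (log2 fold change 1.18). The call of *Kcnj12* was lost without L1CAM-negative 25 or 31, and also without either L1CAM-positive library.

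The pore subunits of the ATP-sensitive channel, which opens when ATP falls, were examined together with their receptors. *Kcnj11* (Kir6.2) was at 1.05 and 0.886 FPKM in L1CAM-positive spheres and at 0.0878, 0.123 and 0.000262 FPKM in L1CAM-negative spheres (log2 fold change 0.52). *Abcc8*, which encodes its sulfonylurea receptor SUR1, was also higher, by 0.49. *Kcnj8* (Kir6.1), the pore of the vascular form, was at 10.4 and 13.0 FPKM in L1CAM-positive and at 21.0, 29.5 and 19.2 FPKM in L1CAM-negative spheres. The values of *Kcnj8* did not overlap, but the log2 fold change of -0.86 (SE 0.22) had an adjusted p of 0.0781 by limma. It passed under 5 of 17 alternatives, with an adjusted p as low as 0.0242 when genes with low values were left out, and in none of the 5 fits that leave out a library (0.0869 to 0.304). *Abcc9*, the receptor SUR2, overlapped between the fractions. Of 7 markers of smooth muscle and pericytes, none passed, and their summed level was 59.1 and 77.8 FPKM in L1CAM-positive and 145, 135 and 189 FPKM in L1CAM-negative spheres. The part of these cells in the level of *Kcnj8* was not tested.

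Of the 8 calcium- or sodium-activated channels, 3 were higher and 2, *Kcnt2* and *Kcnma1*, lower in L1CAM-positive spheres. *Kcnma1*, the BK channel, turned to higher when its 22 transcripts were summed (0.59, adjusted p 0.0347 by limma). *Kcnn3*, the small-conductance channel SK3, was at 9.64 and 8.99 against 4.71, 4.80 and 3.09 FPKM (log2 fold change 0.88, adjusted p 0.0423 by limma). The call of *Kcnn3* was lost without L1CAM-negative 25 or 31, and also without either L1CAM-positive library. *Kcnn2*, the related SK2, had the opposite order, at 3.53 and 3.93 against 15.6, 10.1 and 5.34 FPKM, and did not pass (adjusted p 0.207 by limma). The ratio of *Kcnn3* to *Kcnn2* was 2.73 and 2.29 in the L1CAM-positive fraction and 0.302, 0.474 and 0.579 in L1CAM-negative spheres. *Kcnn4*, the intermediate-conductance channel known from blood cells, was at 0.308 and 0.370 FPKM in L1CAM-positive spheres and at 1.70, 4.23 and 16.1 FPKM in L1CAM-negative spheres 25, 31 and 28. The P5 library was the highest, and the log2 fold change of -1.67 (SE 0.79) did not pass (adjusted p 0.248 by limma). The sodium-activated pair was also split. *Kcnt1* (Slack) was at 2.49 and 2.13 against 0.672, 0.748 and 0.995 FPKM, and *Kcnt2* (Slick) at 1.22 and 1.35 against 3.58, 3.17 and 2.77 FPKM. The calls of *Kcnt1* and *Kcnt2* were also lost without L1CAM-negative 25 or 31 and without either L1CAM-positive library.

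Of the 17 auxiliary subunits, which adjust trafficking and gating, 1 was higher and 2, *Kcnab3* and *Kcnip3*, were lower. These counts are not far from the shares over all genes, 11.6% higher and 10.01% lower. With summed transcripts, *Kcnip3* turned to higher (0.78, adjusted p 0.0390 by limma), and *Kcnab2*, which did not pass with 1 transcript, was higher (1.36, adjusted p 0.0313 by limma). *Kcnmb2*, which inactivates the large-conductance BK channel in rat chromaffin cells, was at 5.24 and 5.29 FPKM in L1CAM-positive and at 0.599, 0.956 and 0.0523 FPKM in L1CAM-negative spheres 25, 31 and 28. Its log2 fold change was 1.54 (SE 0.18, adjusted p 0.0150 by limma), and the call was lost without L1CAM-positive 25 or 31 or L1CAM-negative 25 (adjusted p up to 0.0967). *Kcnab3*, a cytoplasmic subunit of Kv1 channels, was at 1.74 and 1.63 against 4.29, 3.07 and 4.0 FPKM (log2 fold change -0.65). The call of *Kcnab3* was lost without L1CAM-negative 25 or 28, and also without either L1CAM-positive library. *Kcnip1*, a calcium-binding partner of Kv4 channels, was at 3.39 and 3.72 against 0.515, 0.452 and 1.70 FPKM and did not pass (adjusted p 0.0630 by limma). Without the P5 library, in which it was highest among the L1CAM-negative libraries, its adjusted p was 0.0116. *Kcne4*, which suppresses Kv1 and Kv7 channels, was at 3.16 and 4.13 against 6.51, 10.1 and 5.77 FPKM and did not pass.

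**Figure D3:**
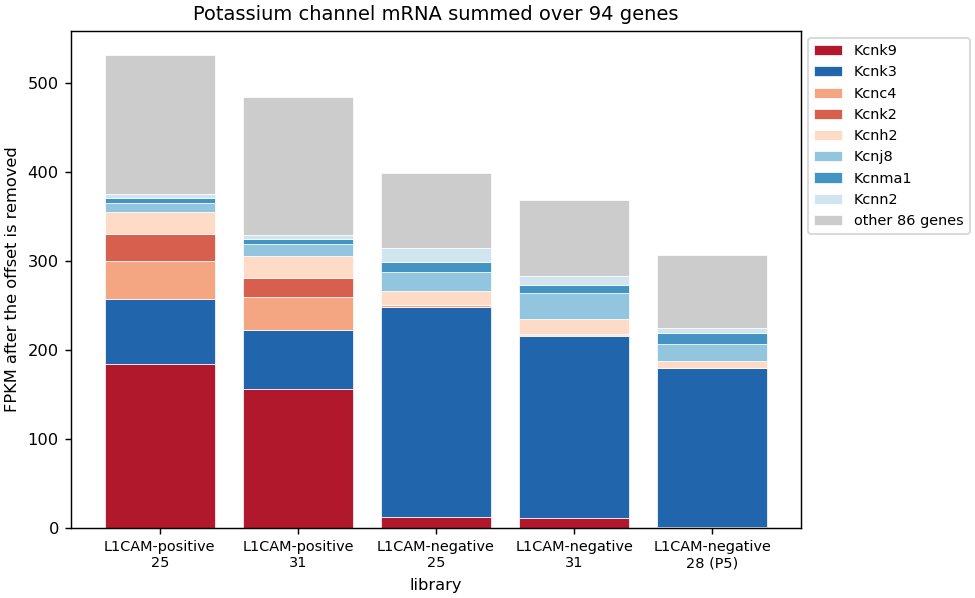
Summed FPKM of the 94 potassium channel genes (y axis) in each of the 5 libraries (x axis), divided among 8 abundant genes and all others. *Kcnk9* takes 34.5% and 32.1% of the L1CAM-positive bars and *Kcnk3* between 55.4% and 59.2% of the L1CAM-negative bars.

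Summed over the 94 genes, potassium channel mRNA came to 532 and 485 FPKM in L1CAM-positive and to 399, 368 and 306 FPKM in L1CAM-negative spheres 25, 31 and 28. The ratio of the means was 1.42, with an exact permutation p of 0.1, two-sided, the smallest that 2 against 3 libraries allow. Without *Kcnk3* and *Kcnk9*, the sums were 275 and 262 against at most 153 FPKM, a ratio of 1.87 (exact permutation p 0.1). The 3 most abundant genes made up 53.5% to 56.4% of the sum in L1CAM-positive and 67.9% to 69.7% in L1CAM-negative spheres. The Kv1 to Kv4 families took 15.4% and 15.5% of it in L1CAM-positive spheres and 4.84% to 5.00% in L1CAM-negative spheres. With 1 transcript per gene, *Kcnk9* had the highest level in L1CAM-positive spheres, followed by *Kcnk3* and *Kcnc4*, and the ranges of *Kcnk2* and *Kcnh2* overlapped. Summed over its 4 transcripts, *Kcnk2* was at 58.9 and 46.3 FPKM there, above *Kcnc4* and *Kcnh2*.

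The L1CAM-negative libraries differed among themselves as well. Of the 30 genes higher in L1CAM-positive spheres, 20 had their lowest value in the P5 library, 6 in L1CAM-negative 31 and 4 in L1CAM-negative 25. The same split over all genes higher in L1CAM-positive spheres is not given here. Of the 30 potassium channel genes, 25 reached 1 FPKM in L1CAM-positive 25 and 31 alike. Their median level in the L1CAM-negative libraries 25, 31 and 28 was 16.0%, 12.8% and 8.32% of the L1CAM-positive level. A lower level in the L1CAM-negative libraries was fixed by this choice of genes. The summed chromaffin markers were also lowest in the P5 library. The markers of glia had another order. Of these, 3 of 6 were higher in L1CAM-positive spheres, their sum was 54.1 and 117 FPKM against 5.44, 8.08 and 10.2 FPKM in L1CAM-negative 25, 31 and 28, and the P5 library was the highest of the L1CAM-negative ones. The part of both cell types in the level of the channels was not tested. Age is tied to 1 library and cannot be told apart from that library.

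Genes that work with potassium channels without carrying the *Kcn* symbol were examined from a list of 24, of which 12 were higher and 2 lower in L1CAM-positive spheres, beside 11.6% and 10.01% of all genes. *Dpp6* and *Dpp10*, the dipeptidyl peptidase-like partners of Kv4 channels, rose by 1.93 and 1.50 on the log2 scale. *Dpp6* was at 15.4 and 13.6 FPKM in L1CAM-positive and at 2.28, 2.10 and 2.59 FPKM in L1CAM-negative spheres. Of the pacemaker channels, *Hcn2*, *Hcn3* and *Hcn4* were higher, with log2 fold changes of 1.73, 1.04 and 1.95. *Amigo1*, an adhesion protein that binds Kv channels, *Dlg4* and *Cntnap2*, which gather Kv1 channels at synapses and axons, and *Lgi1* were higher by 0.87, 0.98, 1.18 and 0.37. The counter-ion channels of the endoplasmic reticulum were split, with *Tmem38a* higher by 1.28 and *Tmem38b* lower, at -1.56. *Sgk1*, a kinase induced by corticosteroids that raises the surface level of several channels, was lower, at -1.82.

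The 94 genes are represented by 177 transcripts. When each of the 32737 transcripts was tested on its own, a comparison chosen after the data were seen, 45 transcripts of potassium channel genes were higher and 5 lower in L1CAM-positive spheres, beside 9.57% and 7.83% of all transcripts. *Kcnip3* and *Kcnma1* had transcripts past the threshold in both directions. Cufflinks divides reads among overlapping transcripts, so that these levels are estimates.

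*Kcnip3* encodes KChIP3, also known as calsenilin and DREAM, a calcium-binding partner of Kv4 channels and transcriptional repressor. The transcript NM_001111331 was at 1.08 and 1.05 FPKM in L1CAM-positive and at 4.33, 2.82 and 3.11 FPKM in L1CAM-negative spheres 25, 31 and 28. Its log2 fold change was -0.81 (SE 0.15, adjusted p 0.0356 by limma over all genes and 0.0481 over all transcripts). The transcript NM_019789, which starts 38893 bases upstream in the RefSeq annotation, was at 5.20 and 7.02 FPKM in L1CAM-positive and at 0.0140, 1.00 and 0.00514 FPKM in L1CAM-negative spheres, with a log2 fold change of 1.81 (adjusted p 0.0248 by limma over all transcripts). Summed over its 4 transcripts, *Kcnip3* was higher in L1CAM-positive spheres, at 0.78 (adjusted p 0.0390 by limma), opposite to the transcript that stands for the gene. NM_001111331 made up 12.8% and 9.81% of the sum in the L1CAM-positive fraction and 82.1%, 56.7% and 79.1% in L1CAM-negative spheres. The bases before both starts are shown because the fractions favoured different ones. Capitals mark matches to a set of motifs. The window of NM_001111331 holds 1 match to the GC box GGGCGG. The window of NM_019789 holds 1 match to the motif AGATAA of GATA factors. Both windows lie on the minus strand of GRCm38.p6, at chr2:127482500-127482749 and chr2:127521393-127521642, and have 71.2% and 58.0% G and C.
Kcnip3 NM_001111331: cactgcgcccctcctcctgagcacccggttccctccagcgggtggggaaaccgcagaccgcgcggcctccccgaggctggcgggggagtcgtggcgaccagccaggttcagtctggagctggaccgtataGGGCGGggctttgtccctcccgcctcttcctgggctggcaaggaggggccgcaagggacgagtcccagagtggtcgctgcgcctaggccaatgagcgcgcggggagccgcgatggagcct
Kcnip3 NM_019789: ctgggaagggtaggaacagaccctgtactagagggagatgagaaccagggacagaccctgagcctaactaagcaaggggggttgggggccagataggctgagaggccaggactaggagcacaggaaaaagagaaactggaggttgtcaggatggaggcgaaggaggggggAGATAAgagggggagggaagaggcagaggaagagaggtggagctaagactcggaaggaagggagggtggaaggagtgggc

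*Kcnk2* had 4 transcripts, each higher in L1CAM-positive spheres in the test over all transcripts. NM_001281848, which begins 58021 bases upstream of the others, rose most, by 3.34 on the log2 scale. It took 50.9% and 45.0% of the summed *Kcnk2* FPKM in the L1CAM-positive fraction and 11.5%, 25.2% and 9.16% in L1CAM-negative spheres. The window before this start (minus strand, chr1:189402274-189402523) has 42.4% G and C and 1 match to the E-box CAGATG, in capitals on the opposite strand.
Kcnk2 NM_001281848: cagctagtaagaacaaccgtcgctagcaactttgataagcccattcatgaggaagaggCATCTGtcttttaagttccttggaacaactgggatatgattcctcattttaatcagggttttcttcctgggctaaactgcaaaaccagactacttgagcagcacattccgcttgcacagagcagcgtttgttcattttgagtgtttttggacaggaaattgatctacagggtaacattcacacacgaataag

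Promoter windows from RefSeq (GRCm38.p6) were at hand for 69 of the 94 genes, in 94 windows, and were searched for 7 motifs on both strands over the 250 bases before the start. GGGCGG was found in 10 of the 23 windows of genes higher in L1CAM-positive spheres (43.5%), against 44.7% of the 94 windows of these 69 genes and 32.7% of all promoters. CAGATG was found in 8.70%, against 14.4% of all promoters, and TATAAA in 4.35%, against 12.4%. AGATAA, TGACGTCA (the cyclic AMP response element) and a paired homeodomain motif had 0 matches in the 23 windows, with 9.99%, 1.55% and 0.463% of all promoters. In the 94 windows of the 69 genes, CAGATG matched 14.9%, TATAAA 3.19% and AGATAA 3.19%, and the other 2 motifs of the sentence before matched none. Genes were sorted by 1 transcript each, so that *Kcnip3*, with its AGATAA match before NM_019789, counted as lower. TTCAGCACC, the left part of the RE1 element read by the repressor REST, had 1 match, in the window of *Kcnh6*, against 0.301% of all promoters. The motifs share no letters in the printed windows.

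*Kcnma1* encodes the pore of the BK channel, which opens with calcium and depolarization and shapes firing in chromaffin cells. The transcript that stands for the gene, NM_001253376, was at 5.85 and 5.87 FPKM in L1CAM-positive and at 11.0, 9.36 and 12.1 FPKM in L1CAM-negative spheres 25, 31 and 28, with a log2 fold change of -0.70 (SE 0.11, adjusted p 0.0286 by limma). Summed over all 22 transcripts, the gene was higher in L1CAM-positive spheres, at 24.4 and 21.5 against 15.4, 12.9 and 15.5 FPKM (log2 fold change 0.59, adjusted p 0.0347 by limma). The other 21 transcripts came to 18.5 and 15.6 against 4.43, 3.55 and 3.42 FPKM. NM_001253364 has 1 exon, of 174 bases, that overlaps no exon of NM_001253376, and other differences between these transcripts are not described here. This exon is the stress-axis regulated exon (STREX), known from chromaffin and pituitary cells, which inserts a cysteine-rich stretch into the intracellular part of the channel. It lies at chr14:23425567-23425740 (minus strand, GRCm38), is coding, and is printed with the 6 cysteine codons of its open frame in capitals.
Kcnma1 exon: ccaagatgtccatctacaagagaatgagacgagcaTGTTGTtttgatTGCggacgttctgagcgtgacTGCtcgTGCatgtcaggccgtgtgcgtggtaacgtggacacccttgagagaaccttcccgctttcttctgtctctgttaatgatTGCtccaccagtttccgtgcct

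The 5 transcripts that contain this exon in the GENCODE annotation summed to 7.39 and 5.79 FPKM in L1CAM-positive and to 0.720, 1.26 and 0.489 FPKM in L1CAM-negative spheres 25, 31 and 28. This was 30.3% and 26.9% of all *Kcnma1* FPKM in the L1CAM-positive fraction and 4.67%, 9.75% and 3.16% in L1CAM-negative spheres, with no overlap (exact permutation p 0.1, two-sided, the smallest possible). The 11 transcripts without it made up 47.2% and 47.4% against 91.3%, 72.6% and 91.0%. The other 6 transcripts were not matched to the annotation and held 22.4% and 25.7% against 4.07%, 17.6% and 5.88%. Reads across the junctions of the exon were not analysed here.

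*Kcnab2*, a subunit of Kv1 channels with an oxidoreductase fold, also differed between its transcripts. The transcript with the highest mean log2 value, NM_001252654, did not pass, at 2.92 and 3.94 against 1.95, 1.69 and 1.19 FPKM. NM_010598 was at 9.15 and 6.16 FPKM in L1CAM-positive and at 0.0597, 0.0251 and 0.133 FPKM in L1CAM-negative spheres (log2 fold change 2.20, adjusted p 0.00836 by limma over all transcripts). The other 2 coding transcripts had log2 fold changes of -0.21 and -0.64 and did not pass. Summed over 4 transcripts, the log2 fold change of *Kcnab2* was 1.36 (adjusted p 0.0313 by limma).

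**Figure D4:**
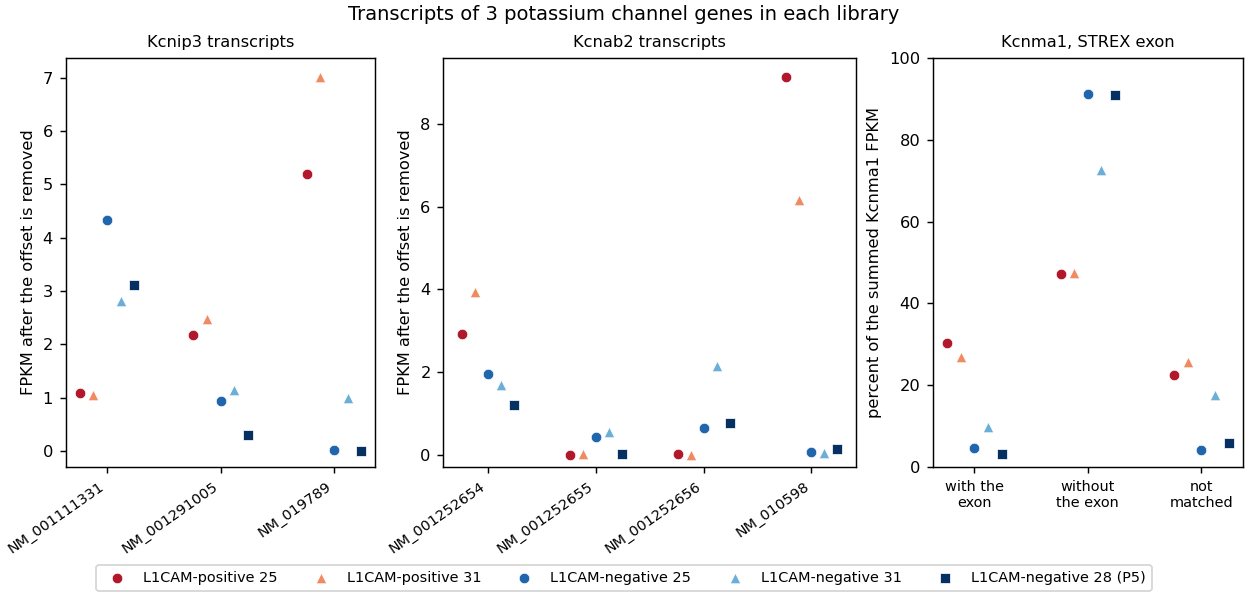
Values of each coding transcript of *Kcnip3* and *Kcnab2* in FPKM, and the percent of the summed *Kcnma1* FPKM in transcripts with, without or not matched for the STREX exon, with 1 point per library. NM_001111331 of *Kcnip3* lies lower and NM_019789 higher in L1CAM-positive libraries, and transcripts with the exon lie at 26.9% and 30.3% in L1CAM-positive and at no more than 9.75% in L1CAM-negative libraries.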

How the data were processed

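Stranded mRNA libraries were sequenced, and per the study's methods, the authors used STAR 2.6.1a for alignment to mm10 and Cufflinks for FPKM. The deposited values are log2 of FPKM after quantile normalization by the authors, 1 per RefSeq transcript. The offset of the logarithm is not given in the sources used here, and 2 was inferred because no value lies below 1. The depth is unknown, and the number of libraries limits the precision. No deposited library was left out.

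The fractions were compared with limma 3.58.1 (lmFit, eBayes with a trend) in R 4.3.3, after a check on simulated data, on 2 L1CAM-positive against 3 L1CAM-negative libraries, two-sided, with the Benjamini-Hochberg adjustment over 23903 genes. Sums were compared by exact permutation. Named genes were the 10 with the largest change past the threshold in each direction, the 3 most abundant in each fraction, the most abundant of each subfamily, and the 3 largest changes, in either direction, without overlap that did not pass. Other genes were named after their values were seen, and a few single genes are not reported here. Members, the list of 24 partners and the marker lists were chosen with earlier results of these data known. Of the 7 marker lists, endothelium and fibroblasts had 3 of 6 genes each higher in L1CAM-negative spheres, and macrophages 0 of 4 in either direction. Transcripts were matched to GENCODE M21 (161 of 177) and promoters to RefSeq. The alternatives were pseudocounts, filters, summed or separate transcripts, other normalizations, no trend, a robust fit, a replicate block, culture days as a covariate, and omission of each library. Tables and plots used Python 3.11.15, pandas 2.3.3, numpy 2.4.6 and scipy 1.17.1.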

Additional observations from a re-analysis of the deposited data

How the results depend on the processing

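Of the fold changes of named genes, *Kcnip3* and *Kcnma1* reversed when transcripts were summed, to 0.78 (adjusted p 0.0390 by limma) and 0.59 (adjusted p 0.0347), since other transcripts of these genes moved the opposite way. The robust fit called 8 potassium channel genes higher and 1 lower in L1CAM-positive spheres, and 797 and 352 of all genes. Median centring raised the potassium channel genes lower to 10, and the count over all genes in that fit is not given here. With culture days as a term, 1727 and 1273 of all genes were called, and 22 and 5 potassium channel genes, with calls lost that included *Kcnk9*, *Kcnj3*, *Kcnj9*, *Kcnj12*, *Kcnn3*, *Kcnv1*, *Kcnab3*, *Kcnip3*, *Kcnma1* and *Kcnt2*. The cause was not tested. Leaving out 1 library gave between 15 and 35 potassium channel genes higher and between 0 and 5 lower, and between 1301 and 2805 and between 521 and 2942 of all genes. The summed level kept a ratio of 1.32 to 1.51 without 1 library and 1.58 with summed transcripts. Quantile normalization over the 5 libraries changed no count.

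With the number as a replicate block, limma called 0 potassium channel genes in either direction and 0 of all genes, beside 53 and 8417 at an unadjusted p under 0.05. No source says what the number marks. Libraries of 1 number also share the culture period and the mix of pups. Over 14091 genes, the difference between 25 and 31 in the 2 fractions had a Pearson r of 0.11, across genes, which are not independent. With pseudocounts of 0.1 and 5, 23 and 33 genes were higher and 6 lower with both, beside 2485 and 2856 higher and 2482 and 2329 lower of all genes. A filter at a log2 value of 2 gave 21 and 7, beside 2806 and 3051 of the 13013 genes left. It too can be met through the libraries of a single fraction. Leaving out genes at the lowest value in every library gave 37 and 8, beside 3106 and 2961 of 19549. Tested by transcript, an alternative chosen after seeing the data, 34 genes had at least 1 transcript higher and 5 at least 1 lower. The share of all genes with such a transcript is not given here. Depth is unknown, so that no limit for low values could be given.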
